A study of Drosophila melanogaster with 2 samples.

Results

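The regions described here are the 605 peaks on the X chromosome in a list of 4410 binding peaks for CG7987 in Drosophila melanogaster embryos. They were taken as every entry of chromosome X in the list that passed the authors' irreproducible discovery rate (IDR) threshold, a criterion for peaks that recur between replicates. They were compared with the 3789 peaks of the same list on the 4 large autosome arms 2L, 2R, 3L and 3R. The remaining 16 peaks lie on chromosome 4 and were left out. The libraries are chromatin immunoprecipitation with sequencing (ChIP-seq) from whole embryos of both sexes aged 0 to 24 h, as 2 biological replicates in 1 group. All material carried CG7987 with GFP fused to its C-terminus, and the labels name no promoter or insertion site for the transgene. The labels conflict on the libraries: assay and antibody fields name a ChIP of CG7987, and a free-text line names an input control. No untagged group was used here, and the authors called peaks against 1 control library. The depth of the libraries is unknown, and each peak carries a signal value that is the authors' own score of its strength.

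In flies the X is present in a single copy in males and in a pair in females. The male-specific lethal complex, guided by the roX non-coding RNAs, binds genes of the male X and raises their transcription. Material of mixed sex therefore holds fewer copies of X than of the autosomes. The amount of X in the ChIP and control libraries was not measured here, so copy number and binding cannot be told apart in a count of peaks.

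Sequences at some of the strongest X summits are shown first. These windows hold neither TATCGATA nor GGTCACACT, promoter motifs that the second set shows. Over all X windows the shares of these motifs were 2.31% and 0.826%, so their absence from a few windows says little. Each window spans 101 bp of the plus strand of dm6 around a summit, read from the RefSeq genome sequence. Capitals mark CGATA on either strand, the core of the DNA replication-related element, and the word CATATG in the first pair, and a shared run in the second pair. The strongest is at Ugalt, which encodes a UDP-galactose transporter, and Tre1 encodes a receptor needed for germ cell migration.
Ugalt promoter, chrX:2703838-2703938: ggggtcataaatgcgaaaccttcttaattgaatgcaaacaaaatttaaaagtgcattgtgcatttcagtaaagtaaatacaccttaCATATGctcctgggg
Tre1 intron, chrX:5678019-5678119: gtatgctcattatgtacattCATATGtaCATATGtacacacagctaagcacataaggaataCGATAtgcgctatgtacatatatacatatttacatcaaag
CG32772 intron, chrX:4910324-4910424: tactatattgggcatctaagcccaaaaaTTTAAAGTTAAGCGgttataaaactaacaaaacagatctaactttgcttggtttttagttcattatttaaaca
Gapdh2 promoter, chrX:15867943-15868043: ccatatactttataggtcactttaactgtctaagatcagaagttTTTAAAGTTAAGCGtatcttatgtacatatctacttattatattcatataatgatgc

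The run TTTAAAGTTAAGCG, 14 bases in length, was the longest shared by any pair of the 20 strongest X windows that do not overlap. It was present in 2 of the 605 X windows, those of CG32772 and of the glycolytic gene Gapdh2, and in none of the 3789 autosomal windows. Its last part, GTTAAGCG, was in 3 X windows (0.496%) and 9 autosomal ones (0.238%). Its first part, TTTAAAGT, was in 13 X windows (2.15%) and 29 autosomal ones (0.765%). In windows 400 bp to the left and right, TTTAAAGT was in 10 and 3 on X and in 43 and 51 on the autosomes. The run was found after the windows had been read, so it is a description with no test.

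A second set shows the motifs of promoter summits. Capitals mark TATCGATA, the replication-related element, GGTCACACT, a promoter element of Drosophila, CACGTG, the E-box of Myc-type factors, and CAGCTG, another E-box. They also mark CGATA outside these words and GGNGGCGC, a core of CTCF sites, each on either strand. Each is the strongest X window holding its motif with at most 30 bases of annotated untranslated sequence, except that the GGTCACACT motif is shown in 2 windows.
SelG, chrX:11887179-11887279: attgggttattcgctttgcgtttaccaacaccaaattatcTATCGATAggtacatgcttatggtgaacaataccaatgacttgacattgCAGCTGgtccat
Top3beta, chrX:6287974-6288074: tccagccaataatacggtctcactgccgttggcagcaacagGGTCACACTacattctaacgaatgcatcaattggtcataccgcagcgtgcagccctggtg
c12.1, chrX:9319228-9319328: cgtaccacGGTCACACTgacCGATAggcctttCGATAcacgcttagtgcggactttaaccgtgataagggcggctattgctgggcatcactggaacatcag
prage, chrX:1842984-1843084: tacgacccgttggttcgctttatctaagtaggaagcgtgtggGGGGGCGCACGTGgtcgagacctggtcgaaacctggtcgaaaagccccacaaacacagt
CG3009, chrX:4666999-4667099: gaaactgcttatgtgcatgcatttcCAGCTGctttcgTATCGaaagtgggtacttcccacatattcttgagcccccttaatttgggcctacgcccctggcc

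The signal at these windows differed widely. The Ugalt peak had a signal of 1844, and that of Tre1 had 935. The SelG and Top3beta peaks had signals of 192 and 238, near the X median of 202. Stronger X windows that hold TATCGATA, such as CG14805 (490) and RpS15Aa (403), were not printed because of the limit on untranslated sequence. The strongest X windows printed first were low in G+C, at 26.7% for Gapdh2, 27.7% for CG32772, 31.7% for Tre1 and 35.6% for Ugalt. The Top3beta window held 52.5%.

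X carried fewer peaks per base than any of the 4 autosome arms. The X arm had 25.7 peaks per Mb over 23.5 Mb, and the autosome arms had 33.2 (3R) to 36.2 (2R). The ratio of X to the autosomes was 0.739 (95% CI 0.677 to 0.806; two-sided exact binomial test, p = 9.73e-13). Counted per transcription start site (TSS) the ratio was 0.797 (0.730 to 0.868; exact binomial p = 1.02e-07). Replicates gave like values when the 4410 strongest candidates of each were taken alone. Replicate 1 had 577 X peaks (ratio 0.699) and replicate 2 had 609 (0.746). When X signals were divided by 0.75, as for embryos with equal numbers of males and females, and the 4410 strongest candidates were chosen again, the ratio became 1.25 (exact binomial p = 5.01e-09). The direction of this difference thus turned with the assumed X dose, which was not measured. The scale of the score is not given and peaks were called against a control, so whether the score follows X dose is unknown. The division by 0.75, here and below, is thus an assumed setting and not a known correction. Peaks are not independent replicates, so each p here speaks of these peaks alone and not of other embryos.

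**Figure D1:**
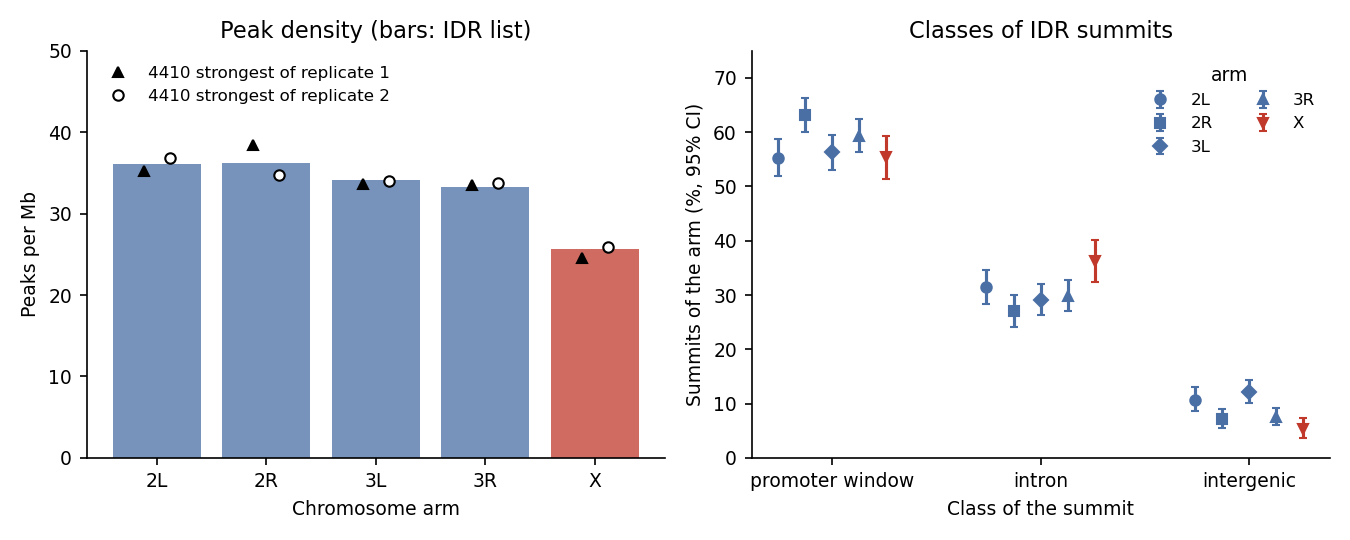
Peaks per Mb of each chromosome arm (left; bars for the IDR list, symbols for the 4410 strongest candidates of each replicate) and percent of each arm's IDR summits in promoter windows, introns and intergenic sequence (right; error bars are exact 95% intervals). X has the lowest bar, at 25.7 peaks per Mb, the highest intron share, at 36.2%, and the lowest intergenic share, at 5.29%.

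The X share was lower in the IDR list than among the weaker candidates, a difference that was not itself tested. X held 13.8% of the IDR peaks on the 5 arms, against 17.8% of their bases and 16.7% of their TSSs. Over 4 equal parts of the list by rank the X share stayed between 13.2% and 14.3%. Below the IDR threshold it was 16.2% (15.2 to 17.2) for ranks 4411 to 9410 and 17.6% (16.5 to 18.7) for ranks 24411 to 29410. Among the strongest peaks the share was lower still. On the arms 5 of the 99 strongest peaks lay on X, or 5.05% (1.66 to 11.4), and 14 of the 197 strongest, or 7.11% (3.94 to 11.6). Among the 496 strongest the share was 13.3%. Over all 30000 pooled candidates, 4875 lay on X, and the ratio per base was 0.901 (0.873 to 0.929; exact binomial p = 1.52e-11) while that per TSS was 0.971 (0.941 to 1.00; exact binomial p = 0.0576). At the threshold itself, the weakest X peaks inside had signals of 138.79, 139.07 and 139.08, and the strongest X candidates outside had 138.29, 138.25 and 138.19.

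**Figure D2:**
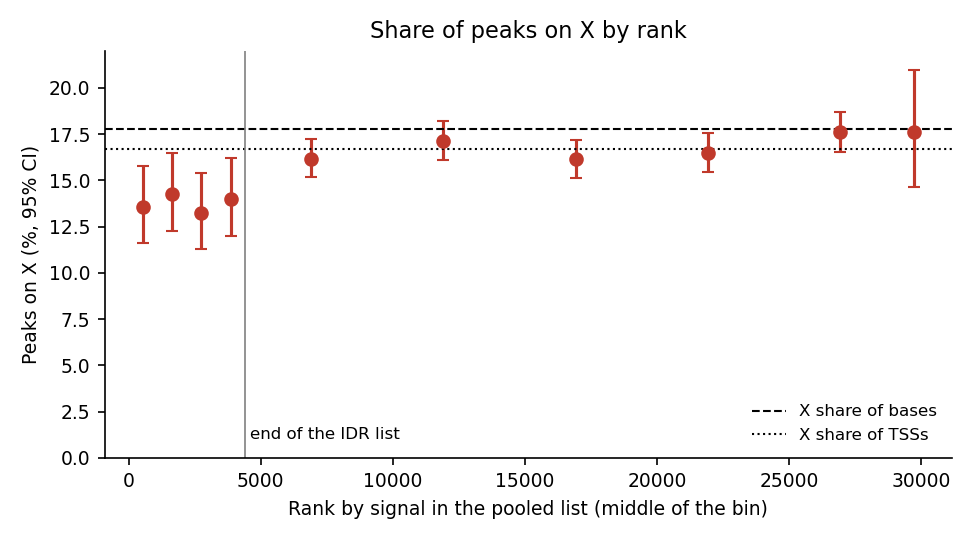
Percent of peaks that lie on X, by rank of signal in the pooled candidate list (points at the middle of each bin, error bars exact 95% intervals; horizontal lines mark the X share of bases and of TSSs). The 4 points inside the IDR list lie between 13.2% and 14.3%, below both lines, and the points beyond it lie between 16.1% and 17.6%.

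No difference in signal was detected between X and autosomal peaks of the list, but this comparison cannot show equal strength. Both sets were cut at the same signal, so like medians were partly set by the selection. The median signal was 202 on X and 201 on the autosomes, and 50.7% of X peaks (46.7 to 54.8) lay above the autosomal median (odds ratio 1.03, two-sided Fisher's exact test, p = 0.759). With X signals divided by 0.75 the test did not pass either (odds ratio 1.06, exact p = 0.461), although the ratio of peak number turned. Over all pooled candidates the direction of the signal difference turned and the difference passed (odds ratio 0.923, exact p = 0.0107). A signal over 429 was reached by 9.26% of X and 10.0% of autosomal peaks (exact p = 0.608). Promoter and intron summits of X had medians of 203 and 202, and the 32 intergenic summits had 175. The width carried little information, since only 9 X peaks and 101 autosomal ones were wider than 376 bp (odds ratio 0.551, exact p = 0.0925).

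X summits lay more often in introns and less often between genes. Of the 605 summits, 335 (55.4%) were within 500 bp of a TSS, called the promoter window, 219 (36.2%) in introns and 32 (5.29%) intergenic. On the autosomes these shares were 58.6%, 29.3% and 9.29%. The intron odds ratio was 1.37 and the intergenic one 0.545, each with an adjusted p of 0.00293 (Fisher's exact test, Benjamini-Hochberg over 7 classes). The promoter share did not pass (odds ratio 0.877, adjusted exact p = 0.334), but it did with a promoter window of 200 bp (0.756, adjusted exact p = 0.00554). The other 4 classes held 5 summits in 5′ UTRs (odds ratio 1.08), 2 in coding exons (0.736), 8 in 3′ UTRs (1.44) and 4 in other exons (1.00), and none passed, with adjusted exact p of 0.648 or more. Over all pooled candidates 3′ UTRs (1.80, adjusted exact p = 2.16e-08), 5′ UTRs (1.33, adjusted exact p = 0.0423) and coding exons (0.754, adjusted exact p = 6.91e-05) passed. In the 4410 strongest peaks of replicate 1 alone the intron odds ratio was 1.23 (adjusted exact p = 0.116), and in those of replicate 2 alone it was 1.48 (adjusted exact p = 0.000129).

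The sequence of X differs in the same way, so the classes were also counted per base. Introns outside promoter windows make up 43.3% of X and 38.6% of the autosomes, and intergenic sequence 22.6% and 28.4%. Per Mb of intron X had 21.5 summits, below each autosome arm (23.0 to 31.1), with a ratio of 0.812 to the autosomes (0.699 to 0.940; adjusted exact binomial p = 0.00454). Per Mb of promoter window it had 113 against 148, a ratio of 0.764 (0.679 to 0.858; adjusted exact binomial p = 7.92e-06). Per Mb of intergenic sequence it had 6.02 against 11.4, a ratio of 0.529 (0.356 to 0.761; adjusted exact binomial p = 0.000333). As deposited, X was thus below the autosomes in all 3 classes. With X signals divided by 0.75 the ratios turned to 1.38 for introns, 1.27 for promoter windows and 1.02 for intergenic sequence (adjusted exact binomial p = 2.10e-06, 4.77e-06 and 0.885), an alternative added after the data were seen. The larger intron share of X summits went with a larger intron share of bases. Arm 3R resembles X in its sequence, with 43.1% intron and 23.9% intergenic bases. Against 3R alone the intron odds ratio was 1.33 (adjusted exact p = 0.0122 over 8 arm comparisons) and the intergenic one 0.688 (adjusted exact p = 0.0965). Against 2L the intron difference did not pass (1.24, adjusted exact p = 0.0836), and against 2R the intergenic one did not (0.730, adjusted exact p = 0.165).

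Promoter summits sat slightly farther upstream on X. Their median position was 60 bp upstream of the nearest TSS, against 31 bp on the autosomes. Of 335 X promoter summits, 38.5% (33.3 to 44.0) lay downstream of the autosomal median, against 49.9% of 2220 (odds ratio 0.628; adjusted p = 0.00136 by Fisher's exact test over 13 tests of position, signal and composition). This measure was added after the data were seen. In the strongest peaks of replicate 2 alone the odds ratio was 0.773 (exact p = 0.0357), and in those of replicate 1 alone 0.910 (exact p = 0.450). The share upstream of the TSS was 71.6% on X and 65.7% on the autosomes, with an exact p of 0.0347 that became 0.0902 after the adjustment. Over all summits the median distance to a TSS was 384 bp on X and 237 bp on the autosomes, and X summits were less often nearer than the autosomal median (odds ratio 0.795, adjusted exact p = 0.0317). In replicate 1 alone that odds ratio was 0.920 (exact p = 0.372), and over all pooled candidates 0.980 (exact p = 0.531).

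**Figure D3:**
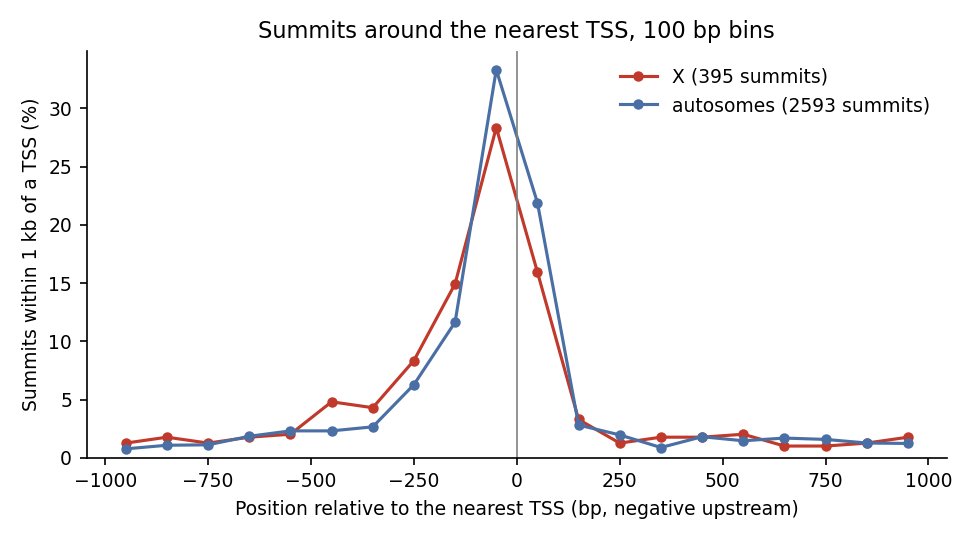
Percent of the summits within 1 kb of a TSS that fall in each 100 bp bin of position relative to the nearest TSS, for X and for the 4 autosome arms pooled. Both profiles peak in the 100 bp upstream of the TSS, with 28.4% on X and 33.3% on the autosomes, and in the 100 bp downstream X has 15.9% against 21.9%.

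Summit windows of X were poorer in G+C. The median was 41.6% on X and 43.6% on the autosomes, and 242 of 605 X windows lay above the autosomal median, against 47.8% of autosomal windows (odds ratio 0.728, adjusted exact p = 0.00243). Windows centred 400 bp to the left showed the same direction (0.792, adjusted exact p = 0.0317), and those to the right did not pass (0.899, adjusted exact p = 0.439). Among promoter summits alone the odds ratio was 0.933 (adjusted exact p = 0.719), so the difference was not detectable there. In the strongest peaks of replicate 1 alone the odds ratio was 1.00 (exact p = 1), and in those of replicate 2 alone 0.790 (exact p = 0.00767).

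Motif frequencies did not pass the test between X and autosomal summits. Of 14 motifs, 0 passed Fisher's exact test after adjustment (0% called), with 1 at an unadjusted p under 0.05. That was GGTCACACT, in 0.826% of X windows and 2.32% of autosomal windows (odds ratio 0.350, adjusted exact p = 0.200). TATCGATA was in 2.31% of X and 2.88% of autosomal windows (odds ratio 0.800, adjusted exact p = 0.668). In the X windows centred 400 bp to either side, TATCGATA had a mean share of 0.413%. CAGCTG (6.12% of X windows, odds ratio 0.816), GAGAGAGA (1.82%, 1.23) and CACACACA (3.97%, 1.07) did not pass either. Every motif was searched on both strands. CGATA (odds ratio 0.935) lies inside TATCGATA, and GAGAG (0.863) inside GAGAGAGA. The motif GGNGGCGC had an odds ratio of 1.45, the E-box CACGTG 0.847 and the homeodomain core TAATTA 0.880. For the Zelda motif CAGGTAG it was 1.48, for the TATA-type word TATAAA 1.08, for TGAGTG 0.860 and for TGCATA 1.31. Within X the shares are given by class of summit, as a description. TATCGATA was in 14 of 335 promoter windows, or 4.18% (2.30 to 6.91), and in 0 of 219 intron windows, which allows a share of up to 1.37%. GGTCACACT was in 5 promoter windows and in 0 intron windows. CGATA was in 23.6% (19.1 to 28.5) of promoter and 12.8% (8.67 to 17.9) of intron windows.

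Words of 6 letters were counted on both strands. Of 2080, 0 passed the adjusted Fisher's exact test (0% called), with 83 more and 67 less frequent on X at an unadjusted p under 0.05. In windows 400 bp to the left these counts were 75 and 79, and to the right 56 and 58. The smallest adjusted exact p at summits was 0.100. It belonged to CATATG, present in 7.27% of X and 3.62% of autosomal windows, and to CATATA, in 11.4% and 6.65%. ATTGGC (7.77% of X windows), AATGTA (11.9%) and CTATGA (3.97%) came next, with adjusted exact p from 0.209 to 0.246. Less frequent on X were CCCCAA, in 1.32% against 4.01%, ACGAGT (0.992% of X windows), CCATCC (0.992%), AATGCC (3.14%) and CGCTGA (1.98%), with adjusted exact p from 0.209 to 0.416. The summit-to-flank difference was also compared between X and the autosomes, and no word passed (0 called by the adjusted exact test, 32 at an unadjusted p under 0.05). Against their own flanks, X summits were richest in CGATAG (8.93% against 2.15%), CGATAC (5.12% against 1.57%) and ACAGTG (12.9% against 4.21%), among words in at least 5% of summits.

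Over all pooled candidates, where 4875 X windows were set against 25055, sequence differences appeared. Of the 14 motifs, 5 passed the adjusted exact test (35.7% called). CACACACA was in 6.24% of X and 4.06% of autosomal windows (odds ratio 1.57, adjusted exact p = 1.40e-09), and GAGAGAGA had an odds ratio of 1.78 (adjusted exact p = 1.87e-05). TATCGATA (1.43) and CGATA (1.15) were more frequent on X, and CAGCTG (0.796) less. For CACACACA the flanks differed too, with a mean of 4.11% on X and 2.30% on the autosomes, and for none of the 14 motifs did the summit-to-flank difference between X and the autosomes pass (smallest adjusted exact p = 0.973). Of 2080 words, 36 were more frequent (1.73% called) and 26 less frequent (1.25% called) on X. Those of smallest p among the former were AAAAAA (17.7% of X windows, odds ratio 1.28), CATACA (1.34), ATCGAT (1.34), CACACA (1.21) and ACACAC (1.22), and those of smallest p among the words less frequent on X were CAGACC (0.600), CCCTAA (0.594), CCGTAC (0.538), GACCTC (0.572) and TCAGCA (0.769). The authors label the candidate lists as peaks together with background.

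Replicate 1 backed X peaks less than autosomal ones. Of the X peaks, 67.3% (63.4 to 71.0) overlapped one of the 4410 strongest peaks of replicate 1, against 74.1% on the autosomes (odds ratio 0.717; adjusted p = 0.00159 by Fisher's exact test over 3 tests). For replicate 2 the shares were 87.6% and 86.4% (1.12, adjusted exact p = 0.442). Both replicates backed 57.4% of X and 62.8% of autosomal peaks (0.797, adjusted exact p = 0.0173), a difference that did not pass when summits within 100 bp were required (0.889, exact p = 0.186). Matching peaks were found for 593 X peaks in replicate 1 and 604 in replicate 2. Of the 592 found in both, 41.4% ranked higher in replicate 1, against 49.0% of 3737 autosomal peaks (odds ratio 0.734, exact p = 0.000551). The median rank of X peaks was 2734 in replicate 1 and 2158.5 in replicate 2, and autosomal peaks had 2368.5 and 2234.5. Over all candidates of replicate 1 the ratio of X to autosomal peaks per base was 0.829 (0.804 to 0.856). In replicate 2 it was 0.902 (0.874 to 0.930). The part of this library-wide difference in the values above was not tested. Across the 592 X peaks Spearman's correlation between the ranks was 0.335, and across autosomal peaks 0.356, as a description over peaks that share their libraries.

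**Figure D4:**
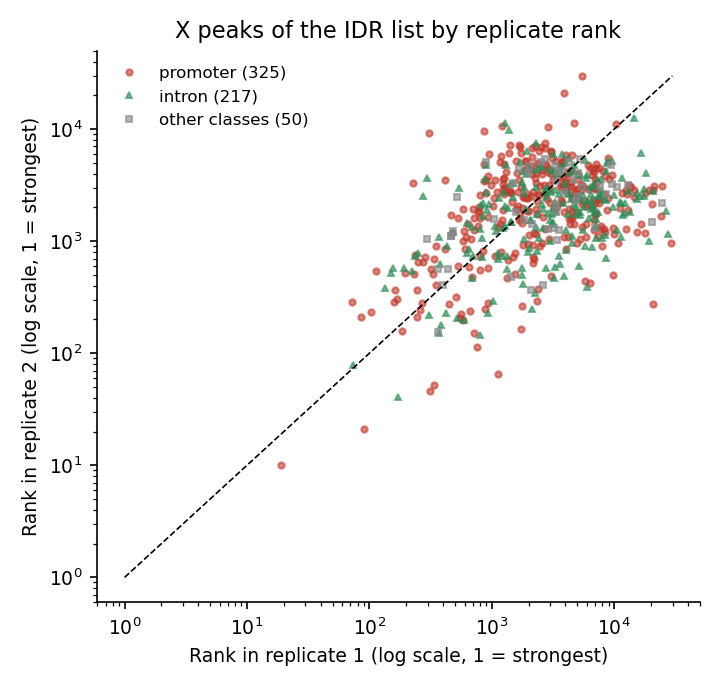
Rank of each X peak in replicate 1 and in replicate 2 (both axes logarithmic, 1 is the strongest; 592 peaks found in both, coloured by class; the dashed line marks equal ranks). More points lie below the line, stronger in replicate 2, than above it, and 41.4% are stronger in replicate 1.

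The strongest X peaks were found in both replicates, mostly at a higher rank in replicate 2. The Ugalt peak was at rank 19 of replicate 1 and rank 10 of replicate 2. The peak inside ph-p, which encodes a subunit of Polycomb repressive complex 1, had a signal of 1297 and ranked 90 and 21. Its summit was 497 bp upstream of an internal TSS, near the edge of the promoter window, and ph-d next to it is a near-identical copy, so reads may be split between them. The intron peak of CG32772 (signal 1008) ranked 171 and 41, the Tre1 intron peak 73 and 79, and Gapdh2 (893) 313 and 46. Atf3, a bZIP transcription factor, ranked 1118 in replicate 1 and 65 in replicate 2, with a pooled signal of 714. Only the ribosomal protein genes RpS10b (86 and 211), RpS28b (72 and 286) and RpL22 (159 and 285), the glial receptor gene moody (103 and 231) and Tre1 ranked higher in replicate 1 among the first 20.

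The other peaks of the first 20 were less strong, at signals of 579 to 722. They lay at lncRNA:CR44619 (2 peaks, 722 and 619), at lncRNA:CR44662 (705) and at the phosphatase gene Ptpmeg2 (667). A peak within 500 bp of TSSs of both bves and Stt3A, an oligosaccharyltransferase subunit gene, had 610, CrebB, a cAMP response factor, had 582, and the transporter gene MFS10 579. Intron peaks lay in the transcription factor gene NFAT (622), in CHES-1-like, a forkhead gene, next to lncRNA:CR43287 (604), and in Tlk, the Tousled-like kinase gene (596).

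A few peaks differed widely in rank between the replicates. A weaker ph-p peak, in an intron, ranked 27580 in replicate 1 and 1151 in replicate 2. An intron peak of the splicing helicase gene Prp16 ranked 26585 and 1849. In the other direction an intron peak of Clic, a chloride channel gene, ranked 1278 and 11249. Each rank is that of the overlapping peak with the nearest summit, so close summits can share a match. At sqh, the myosin regulatory light chain gene, the summits 6224506 and 6224297 matched the same replicate 2 peak at rank 964, and their replicate 1 ranks were 28968 and 4978. At CG43736 the summits 6863505 and 6863303 matched the same replicate 1 peak at rank 3873, and their replicate 2 ranks were 21050 and 485. The wide difference at each of these genes was thus that of 1 of 2 neighbouring summits, and the stronger of the CG43736 summits ranked higher in replicate 2.

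A smaller share of coding genes was bound on X than on the autosomes, a gene being called bound where 1 of its TSSs had a summit at most 500 bp away. On X 351 of 2196 genes were bound (16.0%, 95% CI 14.5 to 17.6), and on the autosomes 2501 of 11669 (21.4%, 20.7 to 22.2; arms 20.1% to 22.1%). With any pooled candidate in place of an IDR peak the shares were 58.2% and 55.1%. With X signals divided by 0.75, added after the data were seen, the direction turned, with 23.5% of X and 19.8% of autosomal genes bound. Lists of genes are set beside the 16.0% of X, for the list as deposited. With X divided by 0.75, the bound members became 3 of 11 for mitochondrial ribosomal proteins, 1 of 3 for dosage compensation, 8 of 27 for developmental regulators, 9 of 18 for chromatin regulators, 4 of 7 for metabolism and 5 of 22 for the visible genes. The other 3 lists kept their counts.

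Cytoplasmic ribosomal protein genes, which encode the ribosome's proteins, were all bound on X. All 14 had a summit, against 54 of 73 (74.0%) on the autosomes. Their median signal was 411 on X and 560 for the bound autosomal ones. The strongest were RpS10b (681, summit 16 bp upstream of its TSS), RpS28b (670, 21 bp upstream) and RpL22 (594, 45 bp upstream), and the weakest RpL35 (204). Summits lay from 99 bp upstream (RpL17) to 36 bp downstream (RpS6) of a TSS. All 14 were within the first 1241 ranks of replicate 1, and RpL36 alone ranked higher in replicate 2 (593) than in replicate 1 (656). RpS14a (236) and RpS14b (301) are tandem near-identical copies, so reads may be split between them. Members were taken by symbol alone, and duplicate copies of a gene count separately. X and the autosomes may hold unlike copies, so 14 of 14 and 54 of 73, and the medians, need not compare like genes.

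Mitochondrial ribosomal protein genes, nuclear genes for the mitochondrion's own ribosome, were not bound on X. None of 11 had an IDR peak, against 23 of 62 (37.1%) on the autosomes. Candidates below the threshold were present at 9 of the 11, the strongest at mRpS14 (signal 136, rank 4562) and mRpL16 (121, rank 5548). The mRpL16 candidate also lay within 500 bp of a TSS of trr, a histone methyltransferase gene.

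Among the listed genes of dosage compensation and sex determination that lie on X, Sxl alone was bound. Of 8 genes of dosage compensation 3 lie on X, and none of these was bound. The 5 on other arms were not examined. The roX1 RNA gene had a candidate 14 bp upstream of its TSS with a signal of 116 (rank 5875), roX2 one of 54.3 (rank 16741), and mof, which encodes the acetyltransferase of the complex, one of 89.9 (rank 8598). Of the 6 genes that count X chromosomes or act early in sex determination, Sxl, the sex determination switch, had a peak of 249 at 466 bp downstream of a TSS, ranked 4074 in replicate 1 and 843 in replicate 2. The numerator genes sc, sisA, run and upd1 had no candidate, and snf, a splicing factor gene, had one of 106 (rank 6745). The 1 of 6 bound in this list (16.7%) is near the 16.0% of all coding genes on X.

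**Figure D5:**
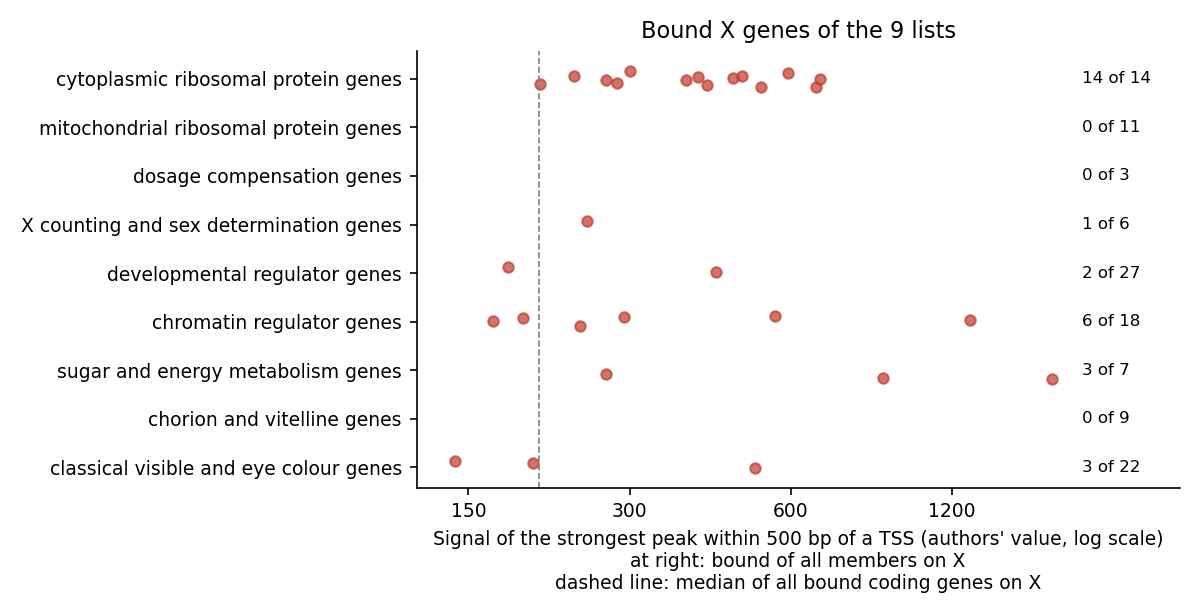
Signal of the strongest peak within 500 bp of a TSS for each bound X gene of 9 lists (log scale; points spread vertically for legibility; numbers at the right give bound genes of all X members). All 14 cytoplasmic ribosomal protein genes lie at or above 204, near or over the dashed median of 203 for all bound coding genes of X.

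Developmental regulators were bound at 2 of 27, elav and Myc. The neuronal gene elav had a signal of 435, with rank 20817 in replicate 1 and 273 in replicate 2. This summit was 258 bp upstream of a TSS of elav and equally of lncRNA:enrr, and lay inside the gene arg. Another summit of the list lay inside elav, 590 bp downstream of a TSS and so outside the promoter window. It had 300, with rank 274 in replicate 1 and 2523 in replicate 2. The growth regulator Myc had 178, with ranks 1200 and 5706. A further 15 of these genes had candidates below the threshold, such as the receptor gene N (136, rank 4545). Chromatin regulators were bound at 6 of 18, led by ph-p, the topoisomerase gene Top1 (560) and fs(1)h (293), the fly BET bromodomain gene, and the other 12 all had candidates. The fs(1)h summit was 188 bp upstream of its TSS, and nearer to the gene mys, at 21 bp upstream. In sugar and energy metabolism 3 of 7 were bound, Ugalt, Gapdh2 and the hexokinase gene Hex-A (271, no match in replicate 1 and rank 584 in replicate 2). The unbound metabolic genes Idh3a (137, rank 4479), ND-20 (106), Zw (81.3) and Pgd (61.8) had weaker candidates.

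Genes of eggshell and yolk had no peaks. All 9, the chorion genes Cp36, Cp38, Cp7Fa, Cp7Fb and Cp7Fc, the yolk protein genes Yp1, Yp2 and Yp3, and dec, lacked any candidate within 500 bp of a TSS among 30000. Of the classical visible and behavioural genes, 3 of 22 were bound, the phosphodiesterase gene dnc (515, 279 bp upstream), ras (198), which encodes IMP dehydrogenase, and the adenylate cyclase gene rut (141). The pigment transporter gene w had a candidate of 34.2 (rank 29371), and y, a cuticle pigment gene, one of 48.7.

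Along X the summits were uneven. The 23 full Mb bins held a median of 28 summits, from 2 to 53. The most lay from 6 to 7 Mb (53), with 43 in the next bin, and the bins from 14 to 15, 20 to 21 and 22 to 23 Mb held 8, 5 and 2. Across the bins Spearman's correlation with the number of TSSs was 0.622 and Pearson's 0.593, as a description of 23 neighbouring bins of 1 chromosome. The last summit was at 22837576, and the widest gap, from 21594084 to 22487129, spanned 893045 bp. The median distance between neighbouring summits was 11708 bp.

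Summits of X stood alone more often. Of 605, 318 (52.6%) had another summit within 5 kb, against 60.3% on the autosomes (odds ratio 0.729, Fisher's exact test, p = 0.000361). X also had fewer summits per Mb, and the part of density in this difference was not tested. The largest group held 10 summits over 13865 bp, from 7697093 to 7710957 at CHES-1-like (minus strand, 7682338 to 7709385), of which 7 were in introns. The next held 9 at CG14434, 8 at CG2865 and Raf, the MAP kinase pathway kinase gene, and 7 at NFAT.

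Intron summits were spread over 149 genes, of which 20 held 3 or more. These genes had a median length of 20.4 kb, against 2.52 kb for all coding genes of X. Only genes with intron sequence more than 500 bp from a TSS could enter, and non-coding genes were included. A greater length was thus largely set by the selection. Examples named after their values were seen are CG1677 with 9 intron summits in 125 kb, all of it also inside lncRNA:CR44357, CHES-1-like with 8 in 27.0 kb, NFAT with 6 in 39.8 kb and Raf with 6 in 48.4 kb. Tlk and the nuclear receptor gene Hr4 held 5 each, and Mnt, which encodes a Myc antagonist, 4. The signals in CHES-1-like ran from 168 to 604.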

How the data were processed

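ChIP-seq peaks of 2 biological replicates were used, on dm6. Per the deposited readme texts the authors derived the peak files from alignments and a control library. No source used here gives the aligner, the caller or the IDR threshold. Each deposited peak carries a score, the authors' signal value, whose scale is not given. The IDR list held 4410 peaks and equalled the strongest 4410 of the pooled candidates. Each candidate list (pooled, replicate 1, replicate 2) held 30000. Read depth is unknown, and intervals cover counting error only.

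Summits were classed with the Ensembl 115 annotation (BDGP 6.54), in the order promoter window (500 bp from a TSS), exon classes, intron, intergenic. Sequence came from the RefSeq genome of the same assembly, as windows of 101 bp at summits and 400 bp to either side. Fisher's exact test (two-sided) served for shares and the exact binomial test for densities, with Benjamini-Hochberg adjustment at 0.05 within each family and exact 95% intervals. The limit for a count of 0 used 3 counts. Ranks in a replicate are those of the overlapping peak with the nearest summit. On simulated windows, 20 of 20 words planted in 15% of X windows were recovered among 2080 words over 4394 windows, and 0 were called with none planted. Smaller differences of the size seen here were not simulated, such as CATATG in 7.27% of X and 3.62% of autosomal windows. Recovery of such words is thus unknown.

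Named genes are the nearest genes of the 20 strongest X peaks, up to 3 bound members per list (every member of lists of up to 9), the 3 largest rank differences each way (1 of them is not reported here), the largest 5 kb group and the roX genes. Words are the 5 of smallest p each way. Other names, among them unbound list members, intron-rich genes and the shared run, were chosen after values were seen. Members and lists were chosen with earlier results of these data known. Alternatives were single replicates, other lists, windows, annotations and arms. The software was scipy 1.17.1, pandas 2.3.3 and numpy 2.4.6 under Python 3.11.15, with figures by matplotlib 3.10.9.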

Additional observations from a re-analysis of the deposited data

How the results depend on the processing

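Values are odds ratios of X over autosomes unless named otherwise, and the cause of each change was not tested. For the main comparisons, 110 alternative values kept direction and side of the threshold, 8 turned, 13 lost and 5 gained the threshold, and 3 counts moved. The ratio of peak number became 1.25 with X signals divided by 0.75. The promoter share became 1.00 over all pooled candidates and, now passing, 0.756 with a 200 bp window. Densities per class turned to 1.27 (promoter), 1.38 (intron) and 1.02 (intergenic), and the ratio of bound genes from 0.746 to 1.18, with X divided by 0.75, chosen after seeing the data. Single replicates gave 1.23 to 1.48 for introns. The upstream share was 1.06 to 1.25 in single replicates, 1.03 in the stronger part of the list, 1.09 with X divided by 0.75, 1.28 with 1 summit per locus, 1.27 without 2R and 1.24 with a 200 bp window. The added median position measure was 0.910 in replicate 1 alone, 0.787 in the stronger part and 0.866 with X divided by 0.75. Signal above the autosomal median gave 0.904 to 1.06 in single replicates, 0.938 in the stronger part, 0.923 over all candidates (which passed), 0.941 with 1 summit per locus and 0.971 without 3L. Width gave 0.137 to 0.635 in single replicates, 0.470 over all candidates, 0.328 with X divided by 0.75 and 0.505 without 3R. G+C gave 0.790 to 1.00 in single replicates, 0.813 in the stronger part and 0.933 for promoter summits. Motifs called numbered 5 over all candidates and 1 with X divided by 0.75, and words 62 over all candidates. Support by both replicates gave 0.829 in the stronger part, 0.889 for summits within 100 bp and 0.634 over all candidates of each replicate. Of the 4 classes with few summits, the 5′ UTR and other exon shares changed direction in some alternatives. The 5′ UTR share was 0.993 in replicate 2 alone and 1.52 in replicate 1 alone, 0.856 with X divided by 0.75 and 0.935 without 3L. Other exons gave 0.617 (stronger part), 0.777 (all candidates), 0.634 (1 summit per locus), 0.808 (without 2L), 0.95 (without 2R), 0.893 (200 bp window) and 0.673 (coding TSSs). TATCGATA gave 1.43 over all candidates and 1.03 in wider windows, GAGAGAGA 0.944 in replicate 2 alone and 1.55 in replicate 1 alone, and CACACACA 0.567 in the stronger part and 0.981 without 3R. No paired analysis was possible because there is 1 group.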
